A study of Mus musculus with 18 samples.

Results

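The 10 genes Fos, Fosb, Jun, Junb, Jund, Egr1, Egr2, Egr3, Atf3 and Ier2 were followed across 18 RNA-seq libraries of mouse brain endothelial cells. They were taken by symbol from the 21638 genes of the deposited count table, and all 10 were found. The cells were cortical endothelium of adult mice, gated by flow cytometry on CD31 and against CD41 and CD45 (CD31+ CD41- CD45-). MCAO, middle cerebral artery occlusion, is a surgical stroke model, and sham animals are its controls. Sham and MCAO mice, both labelled WT, gave 3 libraries each from the ipsilateral side (that of the occlusion) and 3 from the contralateral side. Hdac2 ECKO and Ezh2 ECKO mice had MCAO and gave 3 ipsilateral libraries each. They carried Hdac2lox/lox or Ezh2lox/lox alleles with Cdh5CreERT2, a tamoxifen-activated recombinase driven by the Cdh5 promoter, which is active in endothelium. The labels gave tamoxifen at 75 mg per kg for all 6 groups, and the design text gave 5 doses from day 0 to day 4 for the deletion mice. Cells of all groups were taken on day 7, and libraries were made with the SMART-Seq kit for few cells and sequenced as read pairs. Whether the WT mice carried the recombinase, and how many mice gave each library, is not given in the sources used here. The p-values therefore measure the spread between libraries, which may be partly technical.

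Immediate early genes are transcribed within minutes of a stimulus without new protein synthesis, and their transcripts are usually short-lived. Growth factors, flow, calcium and stress reach them through MAP kinases acting on serum response factor and its partners, and through CREB. Fos and Jun proteins pair as the AP-1 transcription factor, Egr proteins are zinc finger factors that bind GC-rich sites, and in endothelium both families take part in responses to injury, growth factors and shear.

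RefSeq promoter sequences (GRCm38.p6) were matched for 7 of the 10 genes. The 250 bases before the start site of Fos (chr12:85473640-85473889, + strand), Fosb (chr7:19310046-19310295, - strand), Jun (chr4:95052223-95052472, - strand) and Junb (chr8:84978749-84978998, - strand) are printed because Fos, Fosb and Jun varied together in these libraries and Junb did not vary with them. Capitals mark TGACG, the short form of the cyclic AMP response element, and, in Fosb, the Egr site GCGGGGGCG.
Fos: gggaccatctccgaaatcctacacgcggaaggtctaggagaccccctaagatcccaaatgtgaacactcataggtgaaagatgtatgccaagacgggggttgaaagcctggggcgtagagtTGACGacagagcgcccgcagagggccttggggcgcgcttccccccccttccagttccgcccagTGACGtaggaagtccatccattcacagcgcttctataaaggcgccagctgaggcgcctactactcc
Fosb: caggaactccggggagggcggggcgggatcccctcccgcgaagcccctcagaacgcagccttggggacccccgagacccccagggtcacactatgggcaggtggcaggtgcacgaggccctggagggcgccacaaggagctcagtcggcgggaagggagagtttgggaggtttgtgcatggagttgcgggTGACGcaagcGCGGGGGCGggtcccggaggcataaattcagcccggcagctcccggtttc
Jun: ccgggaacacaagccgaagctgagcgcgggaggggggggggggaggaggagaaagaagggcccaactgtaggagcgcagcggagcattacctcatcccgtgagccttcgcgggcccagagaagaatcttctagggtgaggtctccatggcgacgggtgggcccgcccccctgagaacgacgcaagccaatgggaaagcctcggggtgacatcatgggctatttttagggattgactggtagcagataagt
Junb: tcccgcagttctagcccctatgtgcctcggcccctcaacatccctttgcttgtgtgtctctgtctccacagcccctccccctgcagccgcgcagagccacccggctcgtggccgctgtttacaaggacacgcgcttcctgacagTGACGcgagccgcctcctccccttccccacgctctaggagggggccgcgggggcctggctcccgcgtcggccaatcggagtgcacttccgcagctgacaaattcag
In Egr2, 30 bases of a promoter window (chr10:67537787-67537816, + strand) hold a CArG box, the site of serum response factor, in capitals.
Egr2: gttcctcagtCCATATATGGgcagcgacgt
The 7 genes had 11 windows of 300 bases (250 before and 50 after the start), searched on both strands. No window of Egr1, Egr3 or Ier2 was searched, so whether these genes hold the motifs was not tested. Egr2 had several windows, and a gene was counted if any of its windows held a motif. Shares of all mouse promoters count single windows, so the 2 measures are not alike. TGACG was found in Fos, Fosb, Junb, Egr2 and Atf3, which is 5 of 7 genes against 20.8% of 32851 mouse promoters. Its first base stood 129 and 66 bases before the start in Fos, 60 in Fosb and 106 in Junb. The Egr site GCGNGGGCG was found in Fosb alone of the 7 (5.55% of all promoters), and the CArG box in Egr2 alone (1.63%). The full element TGACGTCA, which contains TGACG, and the AP-1 site TGACTCA or TGAGTCA were in 0 of 7 (1.79% and 5.20% of all promoters). Starts are those of RefSeq: the Jund window lies wholly upstream of the GENCODE start of the gene, and the Atf3 window lies within the GENCODE gene. The Egr2 windows that held motifs also lie within the GENCODE gene. The Egr2 window over the GENCODE start (chr10:67535249-67535548) held no searched motif. No searched motif was found in the Jun and Jund windows. For every gene, Fos included, a missing motif says only that those letters are not in its windows. Bases further upstream were not searched.

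On GRCm38, Fos lies at chr12:85473890-85477273 and Fosb at chr7:19302696-19310051. Jun lies at chr4:95049034-95052222, Junb at chr8:84974484-84978718 and Jund at chr8:70698949-70700616. Egr1 lies at chr18:34859823-34864984, Egr2 at chr10:67535475-67542188, Egr3 at chr14:70077203-70082614, Atf3 at chr1:191170296-191218039 and Ier2 at chr8:84661331-84662854. In GENCODE M21, Jun, Junb, Jund and Ier2 have 1 exon and none of the 10 has more than 4, against a median of 7 for coding genes. The heptamer TATTTAT, an AU-rich element of unstable messages, was found in the 3' UTR of 5 of the 10, with 2 copies in Fos and 1 each in Fosb, Jun, Jund and Atf3. It was present in 24.6% of coding genes with a 3' UTR.

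Totals ran from 25791401 to 57576255 counts per library, and levels are given as CPM, counts scaled to a common library total with the TMM method. Summed endothelial markers stood at 12079 to 26122 CPM. The lists for microglia, neurons, astrocytes, oligodendrocytes, pericytes, smooth muscle, platelets and leukocytes each stayed at or below 191 CPM, with no marker at 0 throughout a group, while globin transcripts took 0.0093% to 19.9% of counts, the least in the Ezh2 ECKO libraries (at most 0.0653%). MCAO contralateral library 1 and Ezh2 ECKO library 2 stood apart. Their median correlations with the other libraries were 0.865 and 0.888 against at least 0.922 elsewhere. Hdac2 was at 76.8 ± 16.8 CPM (SD, n = 3) in the libraries labelled Hdac2 ECKO and 82.9 ± 14.0 in MCAO ipsilateral. Ezh2 was at 13.4 ± 5.76 CPM in those labelled Ezh2 ECKO and 6.44 ± 1.77 in MCAO ipsilateral. Hdac2 was thus lower by less than the SD of either group, although its mean was the lowest of the 6 groups, and Ezh2 was higher. A whole-gene count does not check the deleted exons, so every direction below belongs to the libraries as labelled.

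All libraries came from sorted cells, so levels before sorting were not measured, and the part of the handling in the values was not tested. Per kilobase of counted gene length, Fos was the most abundant of the 10, with a median of 375 CPM per kb over the 18 libraries. Ier2, a short nuclear protein of the early response, followed at 159. Junb (48.6), Jun (44.0), Egr1 (42.1), Atf3 (33.3), Fosb (28.8) and Jund (23.8) lay within a narrow band. Egr3 and Egr2 were lowest, at 4.17 and 0.70 CPM per kb. Egr2 reached 10 counts in 16 of 18 libraries and the other 9 genes in all 18, and all 10 passed the low count filter. The highest library exceeded the lowest by 3.81-fold for Fos and by 135-fold and 193-fold for Egr3 and Egr2, the genes with the fewest counts.

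**Figure D1:**
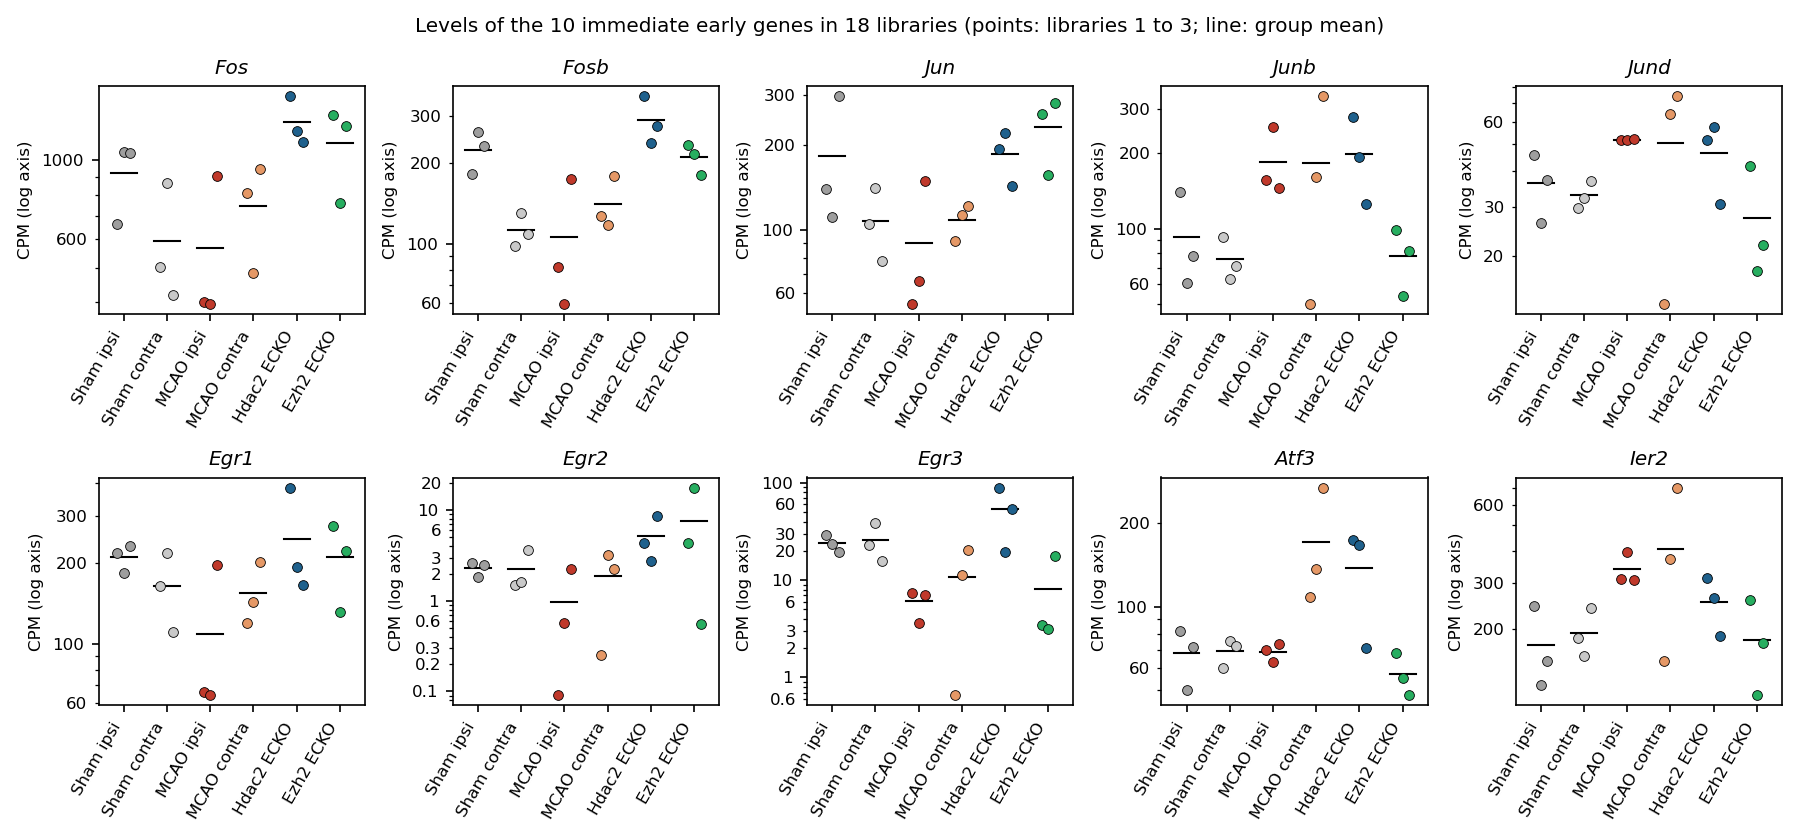
Level of each gene in every library (CPM, log axis), with 1 panel per gene, 1 point per library and a line at the group mean. Fos and Fosb are low in 2 of 3 MCAO ipsilateral libraries and high in the Hdac2 ECKO libraries, whereas Junb, Jund and Ier2 are high in MCAO ipsilateral and low in Ezh2 ECKO.

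The first question was how the occlusion bore on these genes on its own side. Levels of Fos, Fosb, Jun, Egr1, Egr2 and Egr3 stood lower in MCAO ipsilateral than in sham ipsilateral. Levels of Junb, Jund and Ier2 stood higher, but none of these genes passed the test over all genes. edgeR's quasi-likelihood test called 0 of 10 at an adjusted p under 0.05, against 0% of the 17094 genes tested, and DESeq2 also called 0. At an unadjusted p under 0.05 there were 5 of 10, 4 lower and 1 higher, against 7.08% of all genes. The median log2 difference was -0.83 over the 10 and -0.09 over all genes.

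Among the Fos family, Fos, the founding AP-1 partner of Jun, stood at 400.1, 397 and 901 CPM in the MCAO ipsilateral libraries and at 664, 1056 and 1048 in sham ipsilateral. Libraries 1 and 2 of MCAO lay below every sham library and library 3 among them, a log2 difference of -0.71 ± 0.38 (SE, edgeR adjusted p = 0.717). Fosb, its close relative, stood at 82.2, 59.9 and 175 CPM against 182, 260 and 233. Here the groups did not overlap, with a log2 difference of -1.09 ± 0.35 (edgeR adjusted p = 0.542).

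Jun, the partner that lets AP-1 bind DNA, had 55.0, 66.1 and 149.5 CPM after MCAO and 140.2, 112 and 297 in sham. MCAO library 3 again lay within the sham range, and the log2 difference was -1.02 ± 0.41. Junb and Jund, relatives of Jun that activate AP-1 sites less strongly, went the other way. Junb had 156, 253 and 146 CPM against 140.3, 60.8 and 77.6, and Jund had 51.6, 51.9 and 52.0 against 45.6, 26.3 and 37.4. Neither pair of groups overlapped, and the log2 differences were 0.99 ± 0.49 and 0.51 ± 0.48.

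Egr1, the most abundant Egr factor, had 66.0, 64.4 and 197 CPM after MCAO and 219, 184 and 233 in sham, a log2 difference of -0.96 ± 0.43. Its MCAO library 3 overlapped the sham range. Egr3, an Egr factor downstream of VEGF signalling in endothelium, had 7.36, 3.64 and 7.10 CPM against 28.98, 23.5 and 19.3. Those groups lay apart, with the widest log2 difference of the 10, -1.99 ± 0.83 (edgeR adjusted p = 0.645). It was called in a fit of these 2 groups alone (adjusted p = 0.0321). Egr2 had 0.091, 0.57 and 2.25 CPM against 2.64, 1.81 and 2.52. Its groups overlapped at low counts, with a log2 difference of -1.26 ± 1.12.

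Ier2 had 311, 396 and 308 CPM after MCAO and 246, 121 and 151 in sham, a log2 difference of 0.97 ± 0.43. All 3 MCAO libraries were above the sham libraries. Atf3, a stress-induced relative of the AP-1 factors, showed no such separation, with 69.7, 63.1 and 73.6 CPM against 81.9, 50.2 and 71.7. In all, 5 of 10 genes had groups that did not overlap, 3 higher and 2 lower, where 27.7% of all genes tested had such groups.

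The size of several of these differences rested on 1 library. Without MCAO ipsilateral library 3 the log2 difference from sham ipsilateral was -1.18 for Fos, -1.63 for Fosb, -1.56 for Jun and -1.66 for Egr1, with edgeR adjusted p from 0.121 to 0.431. Without sham ipsilateral library 3 it was -0.48 for Jun, and without sham ipsilateral library 2 it was 0.32 for Jund. The whole-library trend with GC content also differed between the groups. It was measured as the Spearman rho across genes of a gene's deviation with its transcript GC, and the 3 MCAO ipsilateral libraries lay at 0.31 to 0.38, the sham ipsilateral ones at -0.37 to 0.37. With that trend removed, Fosb stood at -1.38 and Jun at -1.24, while Junb, Ier2 and Jund stood at 0.64, 0.66 and -0.0032. Of the 10 marker lists, 4 also separated the groups. Summed endothelial markers stood at 18562 to 26122 CPM after MCAO and 14630 to 15812 in sham, microglial markers at 76.4 to 85.4 against 34.1 to 43.3, platelet markers at 34.6 or more against 22.6 or less, and pericyte markers at 19.1 to 56.3 against 69.3 to 83.4. Their part in these results was not tested.

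On the contralateral side the same question was asked. Atf3, Junb and Ier2 stood higher in MCAO contralateral than in sham contralateral, and no Fos or Egr gene reached an unadjusted p under 0.05. edgeR and DESeq2 each called 0 of 10, against 0% of all genes by edgeR, and 3 of 10 were higher and 0 lower at an unadjusted p under 0.05, against 4.41% of all genes. Atf3 had 108, 136 and 267 CPM against 59.98, 75.5 and 71.9, with no overlap and a log2 difference of 1.30 ± 0.38 (edgeR adjusted p = 0.920). It was the 1 gene of 10 without overlap, against 9.65% of all genes.

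Junb had 50.3, 161 and 337 CPM against 92.3, 63.2 and 70.7, and Ier2 had 149.99, 369.6 and 698 against 183, 156 and 239. In both, MCAO contralateral library 1, which stands apart as a whole, lay below all sham libraries and the other 2 above them. The log2 differences were 1.28 ± 0.49 and 1.07 ± 0.43, and without that library they were 1.74 for Junb, 1.48 for Ier2 and 1.57 for Atf3. Without MCAO contralateral library 3, the highest for all 3 genes, they were 0.49, 0.43 and 0.82. Fos had 809.6, 483 and 943 CPM against 504, 864 and 419, overlapping throughout, with a log2 difference of 0.32 ± 0.38 that ran from 0.12 to 0.69 when single libraries were left out. Pericyte markers (7.03 to 17.6 against 40.1 to 96.4 CPM) and astrocyte markers (36.8 to 52.3 against 55.8 to 84.8 CPM) were lower in MCAO contralateral without overlap, and their part was not tested.

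Between sides, edgeR called 0 of 10 in MCAO and 0 of 10 in sham (0% of all genes in each), as did DESeq2. In MCAO, Atf3 was the 1 gene of 10 at an unadjusted p under 0.05 (3.08% of all genes). It was lower ipsilaterally, by a log2 difference of -1.31 ± 0.38, or -0.83 without MCAO contralateral library 3. Ipsilateral and contralateral MCAO libraries were apart in pericyte markers (19.1 to 56.3 against 7.03 to 17.6 CPM). Astrocyte (54.0 to 62.6 against 36.8 to 52.3) and oligodendrocyte markers (25.6 to 29.3 against 42.5 to 190.5) were apart too. Their part in the Atf3 value was not tested. In sham, Fosb was the 1 of 10 (1.85% of all genes), with 182, 260 and 233 CPM ipsilaterally and 98.6, 130 and 109 contralaterally, a log2 difference of 1.00 ± 0.35. The sham sides were also apart in microglial (34.1 to 43.3 against 46.0 to 63.9 CPM), platelet (16.7 to 22.6 against 24.8 to 36.6) and neuronal markers (4.93 to 7.61 against 7.92 to 11.4), and in red cell markers (19217 to 58986 against 72023 to 129581). The part of these in the Fosb value was not tested.

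The test of the change in side difference itself, MCAO minus sham, was negative for 10 of 10 genes, with a median of -0.94 against -0.08 over all genes. edgeR and DESeq2 called 0 of 10 (0% of all genes by edgeR), and Fosb and Atf3 had an unadjusted p under 0.05, which is 2 of 10 against 3.38%. Their values were -1.41 ± 0.49 and -1.29 ± 0.52 (edgeR adjusted p = 0.941 for both). The Atf3 value was -0.81 without MCAO contralateral library 3.

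**Figure D2:**
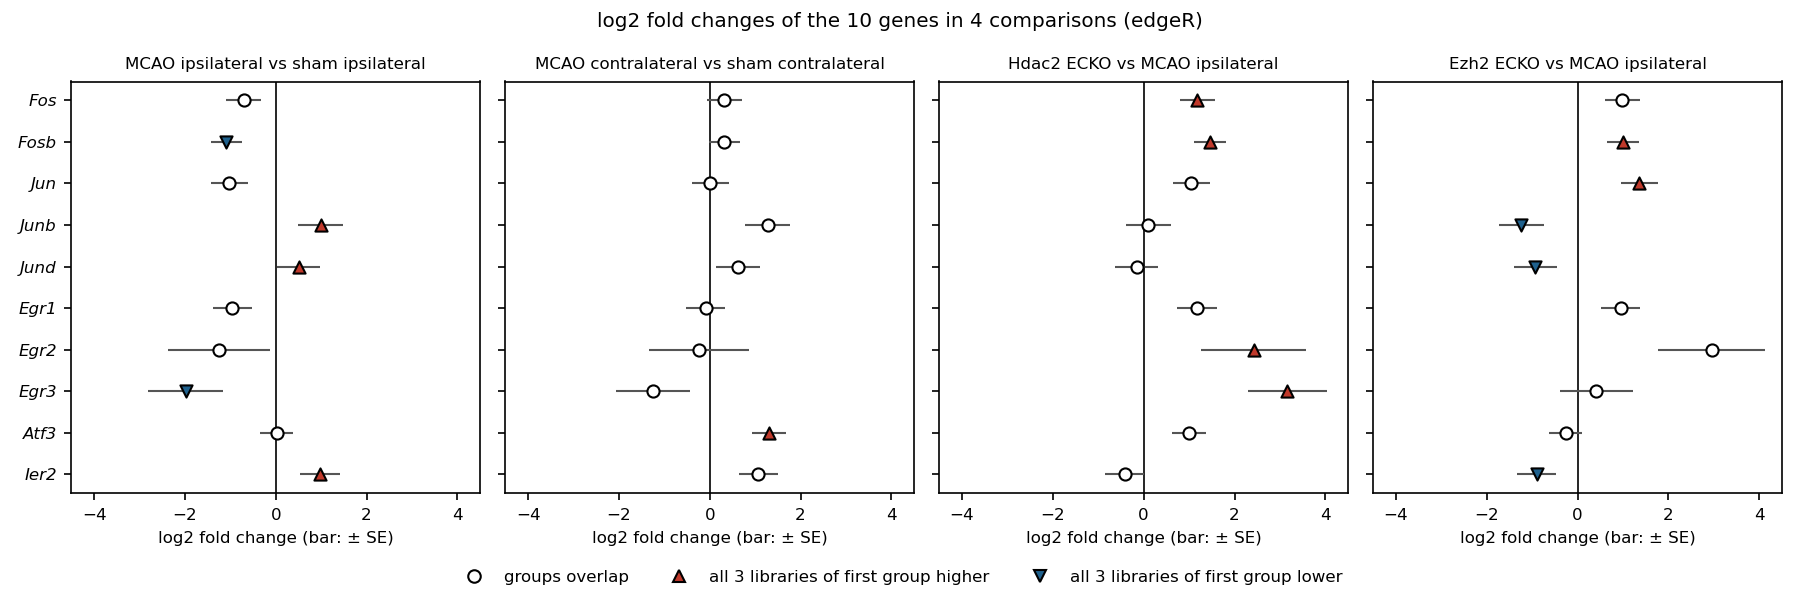
log2 fold change of each gene (edgeR, bars ± SE) in 4 comparisons, with triangles where all 3 libraries of the first group lie above or below all 3 of the second. Fos, Fosb, Jun and Egr1 lie left of 0 in MCAO against sham ipsilateral and right of 0 in both deletion comparisons, which share the MCAO ipsilateral libraries with it.

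Next, the libraries labelled Hdac2 ECKO were set against MCAO ipsilateral, which asks whether these genes differ when an endothelial histone deacetylase is targeted. Fos, Fosb, Jun, all 3 Egr genes and Atf3 stood higher there. Junb, Jund and Ier2 stood near their MCAO levels in the fit without GC correction. edgeR called 0 of 10, against 0.0117% of all genes (2 of 17094), while DESeq2 called Egr3 and Fosb, against 1.66% of the genes it tested. At an unadjusted p under 0.05 there were 7 of 10, all higher, against 9.85% of all genes. The groups did not overlap for Fos, Fosb, Egr2 and Egr3, 4 of 10 against 19.9% of all genes. The median log2 difference of the 10 was 1.11, against 0.11 over all genes. Both deletion comparisons and the comparison with sham use the same MCAO ipsilateral libraries, so a low MCAO value enters all of them. Of the marker lists, the endothelial one alone separated the groups, at 14731 to 17826 CPM in Hdac2 ECKO and 18562 to 26122 in MCAO ipsilateral, and its part was not tested.

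Fos had 1511, 1207 and 1125 CPM in the Hdac2 ECKO libraries, above all MCAO ipsilateral libraries, with a log2 difference of 1.18 ± 0.39. Fosb had 355, 238 and 276 CPM, 2.74-fold above MCAO ipsilateral, and a log2 difference of 1.45 ± 0.35 (edgeR adjusted p = 0.244, DESeq2 adjusted p = 0.0117). Both Fos genes were highest in Hdac2 ECKO library 1. Without MCAO ipsilateral library 3, edgeR called Fosb (log2 difference 1.97, adjusted p = 0.0362).

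Egr3 had 88.8, 19.5 and 53.6 CPM against at most 7.36 in MCAO ipsilateral. That is an 8.94-fold difference, 3.16 ± 0.87 on the log2 scale (edgeR adjusted p = 0.301, DESeq2 adjusted p = 0.00747). Library 2 was well below the other 2 but above every MCAO ipsilateral library. Egr1 had 383, 194 and 166 CPM, and only library 1 lay above MCAO ipsilateral library 3. Its log2 difference was 1.18 ± 0.44, 0.70 without Hdac2 ECKO library 1 and 1.86 without MCAO ipsilateral library 3.

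Egr2, known from myelin and immune cells, had 4.30, 2.77 and 8.59 CPM against 0.091, 0.57 and 2.25. The groups lay apart at low counts, with a log2 difference of 2.42 ± 1.16, or 3.896 without MCAO ipsilateral library 3. Jun had 194, 221 and 144 CPM, and its lowest library fell just under MCAO ipsilateral library 3 (149.5). Its log2 difference was 1.05 ± 0.41. Atf3 had 174, 167 and 71.2 CPM, with libraries 1 and 2 far above the MCAO range and library 3 inside it, a log2 difference of 1.00 ± 0.37.

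Junb had 277, 194 and 125 CPM, Jund had 51.8, 57.4 and 30.5, and Ier2 had 313, 262 and 188. In these 3 genes the Hdac2 ECKO libraries spread across or below the MCAO ipsilateral values, and library 3 was the lowest each time. Hdac2 ECKO library 3 also had the lowest GC trend of its group (-0.27) and the smallest total. The GC trends of the Hdac2 ECKO libraries (-0.27 to 0.16) all lay below those of MCAO ipsilateral (0.31 to 0.38). The log2 differences of Junb, Jund and Ier2 were 0.11, -0.15 and -0.41, and 0.67, 0.55 and 0.11 with the GC trend removed. With it removed, Jun stood at 1.40, Fosb at 1.83 and Fos at 1.35. The part of library 3 and of the GC trend in these values was not tested.

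The libraries labelled Ezh2 ECKO posed the same question for the Polycomb methyltransferase. There the genes divided: Fos, Fosb, Jun, Egr1 and Egr2 stood above MCAO ipsilateral and Junb, Jund and Ier2 below. edgeR called 0 of 10, against 1.46% of all genes, and DESeq2 called Jun, Fosb and Egr2, against 10.3% of the genes it tested. Of the 10, 5 were higher and 2 lower at an unadjusted p under 0.05, against 19.2% of all genes. Groups without overlap numbered 5 of 10, 2 higher and 3 lower, against 29% of all genes. The medians were 0.68 for the 10 and 0.17 for all genes.

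Jun had 257, 157 and 281 CPM, all above the MCAO ipsilateral libraries (at most 149.5). Its log2 difference, 1.36 ± 0.41 or 2.57-fold, had the smallest edgeR adjusted p of any of the 10 genes in the 10 comparisons (edgeR adjusted p = 0.0864, DESeq2 adjusted p = 0.0121). Fosb had 234, 217 and 181 CPM, also above all 3, with a log2 difference of 0.99 ± 0.35 (edgeR adjusted p = 0.131, DESeq2 adjusted p = 0.0294). Without MCAO ipsilateral library 3, edgeR called both, at 1.90 (adjusted p = 0.0342) and 1.53 (adjusted p = 0.0305).

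Fos had 1335, 761 and 1247 CPM and Egr1 277, 132 and 223, each with library 2 inside the MCAO range. Their log2 differences were 0.98 ± 0.38 and 0.95 ± 0.43, and that of Egr1 was 1.65 without MCAO ipsilateral library 3. Egr2 had 4.37, 17.6 and 0.56 CPM, and its log2 difference of 2.95 ± 1.18 became 1.33 without library 2, the library that stands apart, and 4.45 without MCAO ipsilateral library 3.

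Junb had 98.4, 54.0 and 81.5 CPM, Jund 42.0, 17.8 and 21.9, and Ier2 257, 111 and 176. All were below the MCAO ipsilateral libraries, with log2 differences of -1.25 ± 0.49, -0.93 ± 0.48 and -0.90 ± 0.43. Without library 2 these were -1.06, -0.72 and -0.67. The Ezh2 ECKO libraries had GC trends from -0.41 to -0.04, below every MCAO ipsilateral library. With the GC trend removed, Junb stood at -0.12, Jund at 0.43 and Ier2 at 0.08 (edgeR adjusted p = 0.890, 0.554 and 0.926), whereas Jun stood at 1.98, Fosb at 1.65 and Fos at 1.24. The summed olfactory and vomeronasal receptor genes, which mark background reads, also stood higher in Ezh2 ECKO (268 to 2077 CPM) than in MCAO ipsilateral (154 to 296). With that sum as a covariate, Junb stood at -0.27, Jund at -0.14, Ier2 at -0.15 and Jun at 1.502. In Ezh2 ECKO, summed endothelial (12079 to 14543 CPM), microglial (48.1 to 60.5), platelet (17.1 to 29.5), neuronal (1.73 to 4.69) and red cell markers (69.9 to 670.4) all lay below MCAO ipsilateral without overlap. The part of the GC trend, the background and these markers in the values was not tested.

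Set directly against each other, the libraries labelled Hdac2 ECKO stood above those labelled Ezh2 ECKO for Egr3, Junb and Atf3. edgeR called 0 of 10, against 0.123% of all genes, and DESeq2 called Egr3 and Atf3, against 4.72% of the genes it tested. The 3 genes had an unadjusted p under 0.05, all higher, against 11.2% of all genes, and 4 of 10 had groups without overlap, Fosb among them, against 12.1%. Egr3 had 88.8, 19.5 and 53.6 CPM against 3.48, 3.13 and 17.5, a log2 difference of 2.75 ± 0.85 (edgeR adjusted p = 0.215, DESeq2 adjusted p = 0.0252). Atf3 differed by 1.26 ± 0.37 (edgeR adjusted p = 0.189, DESeq2 adjusted p = 0.0411) and Junb by 1.35 ± 0.50, or 0.79 for Junb with the GC trend removed. Endothelial (14731 to 17826 against 12079 to 14543 CPM), neuronal (6.14 to 7.76 against 1.73 to 4.69) and red cell markers were higher in Hdac2 ECKO without overlap, and their part was not tested. Fos differed by 0.20 ± 0.38, Jun by -0.31 ± 0.41 and Egr1 by 0.23 ± 0.43, each within 1 SE of 0.

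Against sham ipsilateral, all 10 genes stood higher in Hdac2 ECKO, with a median of 0.52 against -0.01 over all genes. edgeR and DESeq2 called 0 of 10 (0% of all genes by edgeR), and Junb (1.10 ± 0.49) and Atf3 (1.02 ± 0.37) had an unadjusted p under 0.05, 2 of 10 against 7.14%. In Ezh2 ECKO, 4 of 10 stood above sham ipsilateral and 6 below. edgeR and DESeq2 again called 0 of 10 (0.041% of all genes by edgeR), and 0 had an unadjusted p under 0.05, against 6.52%. Group means in Hdac2 ECKO, Ezh2 ECKO and sham ipsilateral were, in that order, 1281, 1115 and 923 CPM for Fos and 289.9, 210.5 and 225 CPM for Fosb. Microglial markers were higher in Hdac2 ECKO than in sham ipsilateral (58.7 to 80.6 against 34.1 to 43.3 CPM). Pericyte markers were lower (9.96 to 37.6 against 69.3 to 83.4). In Ezh2 ECKO, endothelial, neuronal, smooth muscle and red cell markers lay below sham ipsilateral and microglial markers above, without overlap. The part of these markers was not tested.

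Ranked by group mean, MCAO ipsilateral was the lowest of the 6 groups for Fos, Fosb, Jun, Egr1, Egr2 and Egr3, and Hdac2 ECKO the highest for Fos, Fosb, Junb, Egr1 and Egr3. Neighbouring groups in that order overlapped, except Ezh2 ECKO and MCAO contralateral for Fosb and Hdac2 ECKO and sham ipsilateral for Egr2. MCAO contralateral was the highest for Atf3 and Ier2. In bulk libraries a lower level per cell and fewer expressing cells cannot be told apart.

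The 10 genes did not vary as 1 unit. Over the 18 libraries, pairwise Pearson r of log2 CPM among Fos, Fosb, Jun and Egr1 ran from 0.75 to 0.89, and among Junb, Jund and Ier2 from 0.85 to 0.89. Between those sets r ran from -0.26 to 0.06. With group means removed the ranges were 0.46 to 0.79 within the first set and 0.86 to 0.95 within the second. Between the sets r then ran from -0.05 to 0.39. The sets were named after these values were seen, and the points share their libraries. Atf3 lay nearer the second set (r from 0.55 to 0.66), and Egr2 was tied loosely to the first (0.36 to 0.61). Egr3 was not placed in either. Its r was 0.28 to 0.52 with the first set and 0.30, 0.36 and 0.08 with Junb, Jund and Ier2. With group means removed, Egr3 had 0.17 to 0.45 with the first set and 0.63, 0.58 and 0.57 with those 3 genes. Egr2 then had -0.09 to 0.40 with the first set and 0.19, 0.33 and 0.21 with those 3.

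**Figure D3:**
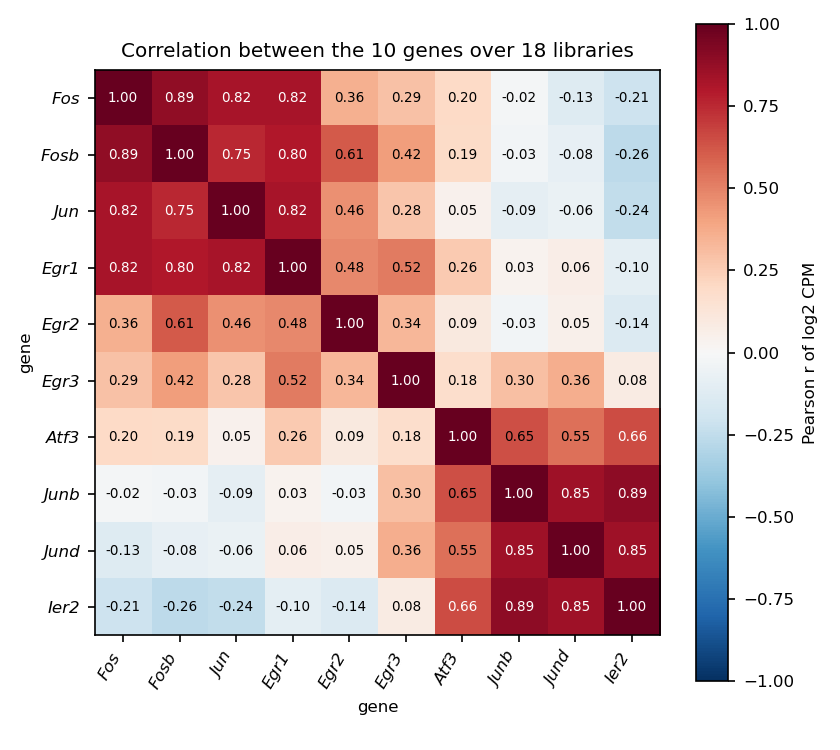
Pearson r of log2 CPM for each pair of the 10 genes over 18 libraries, from -1 (blue) to 1 (red). Fos, Fosb, Jun and Egr1 form a block with r of 0.75 to 0.89, and Junb, Jund and Ier2 a second with r of 0.85 to 0.89.

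The second set shared base composition, which the rule had not used. Junb, Jund and Ier2, which like Jun have 1 exon, have transcripts of 60.9% to 67.1% GC, while the other 7 genes have 51.3% to 57.3% and the median gene stood at 49.4%. Their levels followed the GC trend of the library (r from 0.71 to 0.83, n = 18) and its total count (r of logs from 0.77 to 0.86). They ran against the summed level of olfactory and vomeronasal receptor genes, the background measure above (r from -0.89 to -0.73). Fos, Fosb, Jun and Egr1 had r from -0.51 to -0.18 with the GC trend and from -0.02 to 0.31 with that background. With group means removed, r of the Junb set was 0.87 to 0.89 with the GC trend and -0.94 to -0.90 with the background. For Fos, Fosb, Jun and Egr1 these ran from -0.22 to 0.34 and from -0.38 to 0.05. Atf3 (52.2% GC) had 0.68 and -0.62, Egr3 (51.3% GC) 0.46 and -0.60, and Egr2 (51.4% GC) 0.29 and -0.14. The relation was thus strongest in the Junb set but not confined to GC-rich genes. The part of the GC trend or the background in these levels was not tested.

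**Figure D4:**
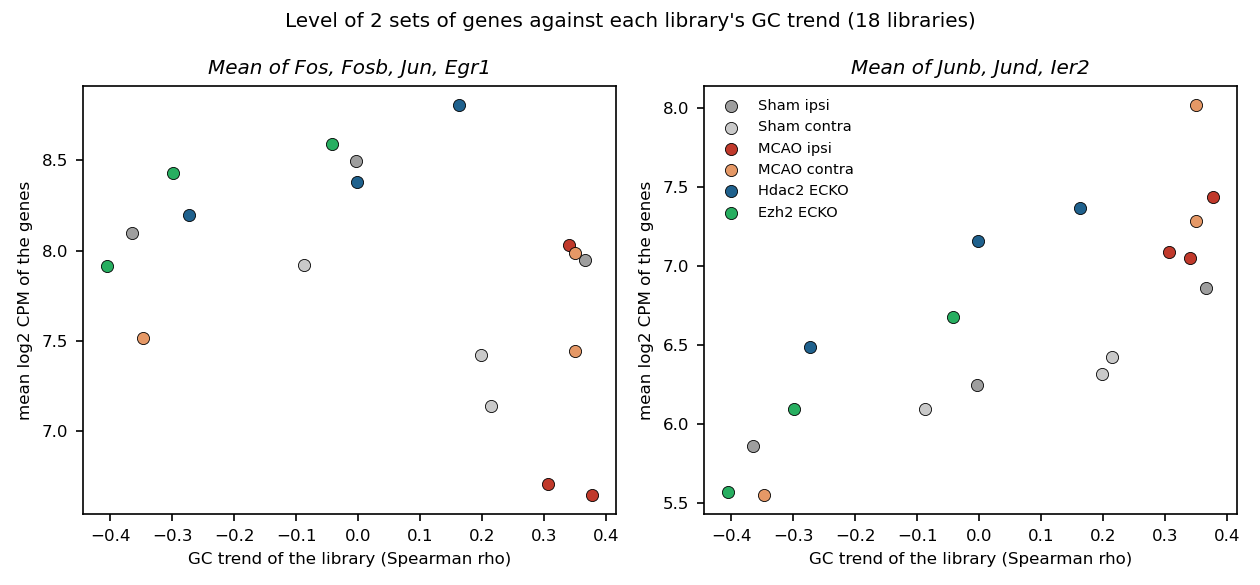
Mean log2 CPM of Fos, Fosb, Jun and Egr1 (left) and of Junb, Jund and Ier2 (right) against the GC trend of each library (Spearman rho), with 1 point per library coloured by group. The right panel climbs from the libraries with the lowest trend (-0.41) to those with the highest (0.38), and the left panel does not.

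Outside the 10, the 6 genes whose level was most like their standardised mean, of 7805 compared over 18 libraries, were Dusp1 (r = 0.88), Ccn1 (0.82), Zfp36 (0.81), Btg2 (0.81), Dll4 (0.79) and Asah2 (0.76). Dusp1 encodes a phosphatase that switches off MAP kinases, Zfp36 a protein that destabilises AU-rich messages, and Dll4 a Notch ligand of endothelial cells. Dusp1, Ccn1, Zfp36 and Btg2 are on the lists described next. The sets had other neighbours. Nearest to the mean of Fos, Fosb, Jun and Egr1 were Mettl23 (r = 0.87), Iars2 (0.85) and Pabpc4 (0.84). Ccn1 (0.81), Klf4 (0.81) and Hnrnpu (0.80) followed. Nearest to the mean of Junb, Jund and Ier2 were Tspan4 (0.94), Rgs3 (0.93) and Rpl3 (0.92). H2-D1, Sertad1 and Mif followed, each at 0.91.

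Among 32 other immediate early genes, 31 were tested, and this list held the only edgeR calls of the 7 lists. In Hdac2 ECKO against MCAO ipsilateral, 26 of 31 stood higher, against 54.8% of all genes, with a median of 0.79 against 0.11 over all genes. Of the 31, edgeR called 2 higher and 0 lower, against 0.0117% of all genes. They were the orphan nuclear receptors Nr4a2 (276 ± 61.1 against 38.2 ± 11.0 CPM, SD, n = 3), by 2.85 ± 0.41 on the log2 scale (edgeR adjusted p = 0.0109), and Nr4a1 (213 ± 49.5 against 47.8 ± 2.66 CPM), by 2.15 ± 0.33 (edgeR adjusted p = 0.0147). They were also the only 2 genes called in that comparison. The direction stayed in each leave-one-out fit, but the calls did not. Without MCAO ipsilateral library 1, MCAO ipsilateral library 2 or Hdac2 ECKO library 1, the adjusted p was 0.180, 0.239 and 0.0816 for Nr4a2 and 0.266, 0.239 and 0.199 for Nr4a1, and without Hdac2 ECKO library 2 it was 0.0639 for Nr4a1.

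In Ezh2 ECKO against MCAO ipsilateral, edgeR called 0 of the 31 higher and 3 lower, against 1.46% of all genes. The median was 0.25 against 0.17 over all genes. Gadd45g (33.8 ± 2.42 against 182 ± 40.2 CPM) and Gadd45b (5.82 ± 3.33 against 32.2 ± 9.18), stress sensors of the Gadd45 family, fell by 2.43 ± 0.52 and 2.47 ± 0.62 on the log2 scale (edgeR adjusted p = 0.0291 and 0.0493). Ier3, a survival gene, fell by 1.76 ± 0.44 (78.5 ± 45.9 against 266 ± 89.2 CPM, edgeR adjusted p = 0.0480). DESeq2 called 4 of the 31 in the Hdac2 comparison (1.66% of all genes it tested) and 6 in this one (10.3%). With the GC trend removed the log2 differences were -1.47, -1.70 and -1.30 for Gadd45g, Gadd45b and Ier3, and none was called (edgeR adjusted p = 0.104, 0.156 and 0.141). Each call was also lost without MCAO ipsilateral library 1 or 2 or Ezh2 ECKO library 2 or 3 (edgeR adjusted p from 0.0727 to 0.231). Without Ezh2 ECKO library 1, Gadd45b and Gadd45g were not called (edgeR adjusted p = 0.101 and 0.0579) and Ier3 was (0.0293).

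In the other 6 lists, edgeR called 0 genes in any comparison; DESeq2's calls in the deletion comparisons with MCAO ipsilateral, and the counts at an unadjusted edgeR p under 0.05, are given for each. The counts at that unadjusted p stand beside 9.85% of all genes in the Hdac2 comparison and 19.2% in the Ezh2 comparison. The DESeq2 counts stand beside 1.66% and 10.3%. All values of these lists are without GC correction. Of 10 other AP-1 subunits tested, 1 was higher at an unadjusted p under 0.05 in Hdac2 ECKO against MCAO ipsilateral. That was Fosl2, a Fos relative, at 154 ± 53.6 against 47.0 ± 15.3 CPM. In Ezh2 ECKO against MCAO ipsilateral, 1 was higher and 3 lower, among them Batf2 (1.45 ± 0.93 against 12.1 ± 4.60 CPM) and Maff (10.1 ± 4.15 against 29.3 ± 12.3 CPM), which is also on the immediate early list. DESeq2 called 1 subunit in each. The Nab corepressors, which bind Egr proteins, had 0 and 1 of 2 at that level in the Hdac2 and Ezh2 comparisons (DESeq2 called 0 in both), with Nab2 at 5.98 ± 1.15 CPM in Ezh2 ECKO and 13.5 ± 0.58 in MCAO ipsilateral.

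Of 8 upstream transcription factors, 1 was lower in Hdac2 ECKO, and 2 were higher and 2 lower in Ezh2 ECKO (DESeq2 called 0 and 1). Srf, serum response factor, had 0.51 ± 0.44 CPM in Hdac2 ECKO and 4.40 ± 3.49 in MCAO ipsilateral. These are low levels, from 0 to 0.79 and from 1.91 to 8.39 CPM over the libraries. Creb1 had 122 ± 44.7 CPM in Ezh2 ECKO and 54.9 ± 8.31 in MCAO ipsilateral. Of 12 upstream kinases, 1 was higher in Hdac2 ECKO and 1 lower in Ezh2 ECKO (DESeq2 called 0 and 1). These were the JNK gene Mapk8 (46.2 ± 21.4 against 18.0 ± 6.07 CPM) and the ERK gene Mapk3 (18.3 ± 2.90 against 61.3 ± 22.6 CPM).

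Of 13 feedback inhibitors of MAP kinases, 2 were higher in Hdac2 ECKO and 0 reached that level in Ezh2 ECKO (DESeq2 called 1 and 0). Spry2, a growth factor antagonist, had 18.9 ± 5.38 against 4.10 ± 1.08 CPM, and Dusp1 had 660 ± 44.4 against 378 ± 117. Of 19 textbook AP-1 or Egr target genes tested, 2 were higher and 3 lower in Hdac2 ECKO, and 1 higher and 2 lower in Ezh2 ECKO (DESeq2 called 1 and 0). Plaur, the urokinase receptor gene, had 6.94 ± 5.78 against 51.8 ± 33.1 CPM in Hdac2 ECKO. Plat, the tissue plasminogen activator gene, had 112 ± 8.24 against 234 ± 133 CPM in Ezh2 ECKO. The median of these targets was 0.12 in Hdac2 ECKO, beside 0.11 for all genes and 1.11 for the 10 factors. In Ezh2 ECKO it was -0.53, beside 0.17 and 0.68.

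Some reads cannot be assigned to 1 strand. Junb overlaps the coding gene Prdx2 on the opposite strand, Jun overlaps the antisense gene Junos, Jund overlaps Gm11175 and Atf3 overlaps Gm24748. The strand setting of the counting is not given in the sources used here, so reads of these partners and of the 4 genes cannot be told apart.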

How the data were processed

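The deposited table holds whole-number counts per gene for 21638 genes and 18 libraries. The authors' counts were treated as unscaled although the table is named normalized, because totals were unequal and even numbers made up 77.3% to 89.4% of the values between 1 and 20, which rescaling would not leave. Per the submitters' processing notes, FastQC, cutadapt, STAR, featureCounts, DESeq2 and build mm10 were used; roles, versions, annotation and strand setting are not given in the sources used here. Groups and library numbers came from the titles, and 0 value columns were left unassigned.

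Each comparison was fitted with edgeR 4.0.16 (R 4.3.3): TMM scaling, genes with at least 10 counts in at least 3 libraries (17094), 1 quasi-likelihood fit of 6 group means, two-sided, Benjamini-Hochberg over all tested genes, called under 0.05. The SE is the log2 fold change over the square root of F. The common biological coefficient of variation was 0.774. A floor of 3 counts was 0.0521 to 0.116 CPM and covers counting error only. DESeq2 1.42.0, other filters and scalings, halved counts, a replicate block, a background covariate and leave-one-out fits were alternatives; the GC correction was added after seeing the data. The pipeline was tested on simulated data. The 10 genes and the lists were chosen with earlier results of these data known. Named genes were the 10, up to 3 called genes per list and comparison, and the 6 nearest by correlation. Where a list had none called, up to 2 with the smallest p in each deletion comparison were taken, some given only in counts. The 6 nearest to each of the 2 sets were added after the sets were seen. Proteins were not analysed here. Correlations used log2 CPM with a prior count of 2. Coordinates and exons came from GENCODE M21 (GRCm38), in which 21442 of 21636 symbols were found.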

Additional observations from a re-analysis of the deposited data

How the results depend on the processing

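Of 45 log2 fold changes followed through 687 alternative fits, 636 kept direction and side of the threshold, 13 passed it, 35 no longer passed it (all for Nr4a1, Nr4a2, Gadd45b, Gadd45g or Ier3) and 3 changed sign. The 3 came with the GC trend removed: Jund at -0.0032 in MCAO against sham ipsilateral, and Jund at 0.43 and Ier2 at 0.076 in Ezh2 ECKO against MCAO ipsilateral. The number of the 10 genes called was 0 in the reported fits and in 148 of 156 alternatives. It was 1 in MCAO against sham ipsilateral with only the compared groups fitted (Egr3). In Hdac2 ECKO against MCAO ipsilateral it was 2 with DESeq2 and ranged from 0 to 1 over leave-one-out fits. In Ezh2 ECKO against MCAO ipsilateral it was 1 with the stricter filter of 50 counts (Jun, 1.51, adjusted p = 0.0401), 1 with RLE scaling (Jun, 1.53, adjusted p = 0.0447), 3 with DESeq2, and 0 to 2 over leave-one-out fits. In Hdac2 ECKO against Ezh2 ECKO it was 2 with DESeq2. The cause of these shifts was not tested. Where a fit without 1 library left 2 in its group, the spread was pooled over all groups.

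With the replicate block, 0 of the 10 genes were called in each of the 10 comparisons, as without it. Over all groups, deviations of same-numbered libraries correlated from -0.42 to 0.39, over 0.1 in 10 of 45 pairs. Of 18 libraries, 4 correlated best with their own number. The 2 sides could come from the same mice. Between them, same-numbered libraries correlated at 0.36, 0.35 and -0.12 in sham and 0.28, 0.36 and 0.04 in MCAO. Different numbers gave -0.50 to 0.35 in sham and -0.36 to 0.21 in MCAO. Whether the sides were paired by mouse cannot be told from these values, and the reported fits did not pair them. With the replicate block the edgeR adjusted p was 0.0790 for Gadd45b, 0.0558 for Gadd45g and 0.0706 for Ier3. The background covariate also ended these 3 calls (0.333, 0.151 and 0.127). With only the compared groups fitted, Nr4a2, Nr4a1 and Gadd45b had 0.0566, 0.0596 and 0.0604. RLE scaling moved the median of all genes by over 0.1 on the log2 scale: from 0.17 to 0.36 in Ezh2 ECKO and from 0.17 to 0.30 in MCAO contralateral, against MCAO ipsilateral and sham contralateral, from -0.05 to -0.21 between the MCAO sides, from -0.15 to -0.26 between the deletions, from 0.13 to 0.27 in Ezh2 ECKO against sham, and from -0.08 to -0.27 for the change in side difference. Group mean levels of the 10 genes moved by less than 1 SD between scalings. Egr2, at 4 counts in its lowest library, is limited by depth.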
